A study of Mus musculus with 8 samples.

Results

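The NMDA and metabotropic glutamate receptor genes were examined in trigeminal ganglia of daDREAM transgenic and control mice. The set was fixed by name and holds 9 genes: Grin1, Grin2a, Grin2b, Grin2d, Grin3a, Grm4, Grm5, Grm7 and Grm8. All probe sets that the platform annotation assigns to 1 of these symbols alone were taken. That gave 17 probe sets for 8 of the 9 genes, out of 45037 probe sets and 18193 genes tested. No probe set stood under the symbol Grin1 alone, so Grin1 is absent from the values below.

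The series holds 8 Affymetrix mouse genome arrays, 4 from mice transgenic for daDREAM (all 4 titles carry the tag tg16) and 4 from control mice. All samples are labelled as trigeminal ganglia of adult males on the C57B/6XCBA strain background. Kcnip3 encodes DREAM, a repressor of transcription that leaves DNA when it binds calcium, and daDREAM is a mutant form made to stay active. The labels state neither the promoter that drives the transgene nor how many animals each array holds. The 4 arrays of each group are labelled as biological replicates. The p-values therefore cover the spread among these 8 arrays, whether each holds a single animal or a pool. Since tissue was profiled in bulk, fewer cells of a type and less RNA per cell cannot be told apart.

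NMDA receptors are glutamate-gated cation channels that pass calcium when glutamate and a co-agonist, glycine or D-serine, are bound and the membrane is depolarised. The obligatory subunit GluN1 (Grin1) combines with GluN2 subunits (Grin2a to Grin2d), which bind glutamate and set the kinetics, or with GluN3 subunits (Grin3a, Grin3b), which bind glycine and lower calcium flow. Metabotropic receptors couple to G proteins: mGlu5 (Grm5) drives phospholipase C through Gq, while mGlu4, mGlu7 and mGlu8 (Grm4, Grm7, Grm8) inhibit adenylyl cyclase through Gi/o and sit largely at presynaptic terminals. Trigeminal sensory neurons release glutamate onto brainstem neurons, and receptors of both families take part in pain signalling.

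Markers of sensory neurons were bright in both groups: 11 of 12 listed genes were measured, and their mean log2 level lay between 11.28 and 11.50 on daDREAM arrays and between 11.30 and 11.50 on control arrays. Markers of central nervous system tissue had a mean log2 level over 16 of 17 listed genes of 8.97 to 9.52 on daDREAM arrays and 8.13 to 8.89 on control arrays. Of these 16, Aqp4, the astrocyte water channel, rose 1.69-fold and was the single marker to pass, and 15 were above 0. Only Zic2 had a mean log2 value under 6. The largest difference of the list was that of Gfap, 1.585 in log2, which did not pass (limma adjusted p = 0.0660). Gfap read 10.77 to 11.24 on daDREAM arrays and 8.29 to 10.22 on control arrays, with no overlap. Leaving out the 2 controls lowest in Gfap, as done below, therefore trimmed the control group alone. Skeletal muscle markers were all below 0 (11 of 11), with mean levels of 6.16 to 6.22 on daDREAM arrays and 6.23 to 8.01 on control arrays, and 0 passed. Control replicates 1 and 3 stood apart, at 8.01 and 7.52, from control replicates 2 and 4, at 6.27 and 6.23. Pituitary markers had mean levels of 6.66 to 8.84 on daDREAM arrays and 6.83 to 7.77 on control arrays, with 0 of 8 past the test. Markers of satellite glia and Schwann cells had mean levels of 12.43 to 12.76 on daDREAM arrays and 12.44 to 12.54 on control arrays, with 0 of 6 past the test. Although the labels say male, Xist, which is transcribed from the inactive X of females, read 11.51 on daDREAM replicate 4 and 10.20 and 11.72 on control replicates 3 and 4, against 6.10 to 6.49 on the other 5 arrays. The Y-linked Eif2s3y read 4.46 on daDREAM replicate 4 and 8.40 and 7.16 on control replicates 3 and 4, against 8.74 to 9.04 on the others, so both controls carried Xist and Y-linked signal. The Xist level and the brightest growth hormone (Gh) signals, on daDREAM replicates 3 and 4 and control replicate 3, were used to leave arrays out in turn. Kcnip3 itself read 10.16 to 10.31 on daDREAM arrays and 10.10 to 10.42 on control arrays at its brighter probe set. At its other probe set it read 8.91 to 9.30 on daDREAM arrays and 8.46 to 9.14 on control arrays. That difference of 0.27 did not pass (limma adjusted p = 0.346 over probe sets). The labels do not say whether either probe set covers the transgene.

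DREAM is known to bind DNA at downstream regulatory elements, whose core is GTCA. Of the receptor genes with values, Grin2d, Grm7 and Grm8 had entries in the RefSeq promoter table (build GRCm38.p6), which gives 250 bases before and 50 after each start site. The promoters of Grin2d and Grm7 are shown because these were the 2 receptor genes with differences below 0 at their brightest probe sets. Neither difference passed (limma adjusted p = 0.328 and 0.415). The other Grin2d probe set differed by 0.005. Of the other Grm7 probe sets, 1458861_at differed by -0.21 and 1459532_at, with a mean log2 value under 6, by 0.0775. None of these differences passed. Whether either gene is a DREAM target was not tested, and the choice does not mark them as such. Capitals mark the core GTCA on the printed strand or its reverse complement TGAC. The Grin2d promoter lies at chr7:45866632-45866931 on the minus strand and the more upstream of 2 Grm7 start sites at chr6:110645262-110645561 on the plus strand.
Grin2d: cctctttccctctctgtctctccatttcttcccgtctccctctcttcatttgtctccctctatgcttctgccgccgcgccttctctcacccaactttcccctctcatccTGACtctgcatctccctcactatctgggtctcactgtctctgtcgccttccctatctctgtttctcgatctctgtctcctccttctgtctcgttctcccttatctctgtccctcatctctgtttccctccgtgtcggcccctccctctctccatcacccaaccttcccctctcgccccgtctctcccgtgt
Grm7: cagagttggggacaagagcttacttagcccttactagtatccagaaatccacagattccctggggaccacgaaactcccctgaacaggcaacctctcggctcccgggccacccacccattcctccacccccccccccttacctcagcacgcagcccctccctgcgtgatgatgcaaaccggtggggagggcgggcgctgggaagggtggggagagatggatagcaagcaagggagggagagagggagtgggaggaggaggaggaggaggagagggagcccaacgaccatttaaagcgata
The Grin2d window held 1 match, as TGAC, 141 bases before the start site, and the Grm7 windows held 0 on either strand. Each of the 3 Grm8 windows held 1 match. The core is short, and 85.2% of 32851 promoters of 300 bases held at least 1 match, with a median of 2.

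None of the 8 receptor genes passed the test between daDREAM and control ganglia, with differences from -0.16 for Grin2d to 0.31 for Grm4. Expression is given as log2 RMA values, differences are daDREAM minus control, and a gene passed at a Benjamini-Hochberg adjusted p under 0.05 over all genes. By limma, 0 of 8 genes passed, where 2.00% of all genes did. At an unadjusted p under 0.05 the count was also 0 of 8, against 18.2% of all genes, and 0 of 8 had groups that did not overlap, against 10.7%. The median difference over the 8 genes was 0.10, against 0.00 over all genes, with 6 above 0 and 2 below.

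Probe sets of the same genes gave the same count. Of 17 probe sets 0 passed limma with adjustment over all probe sets, against 2.74%. At an unadjusted p under 0.05 there were 2 of 17, both lower, against 18.5%, and 1 of 17 had groups that did not overlap, against 11.0%. These 2 were a Grin2b and a Grm7 probe set, described below. Of the 17 probe sets, 3 had a mean log2 value under 6, at which a probe set was counted as dim.

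**Figure D1:**
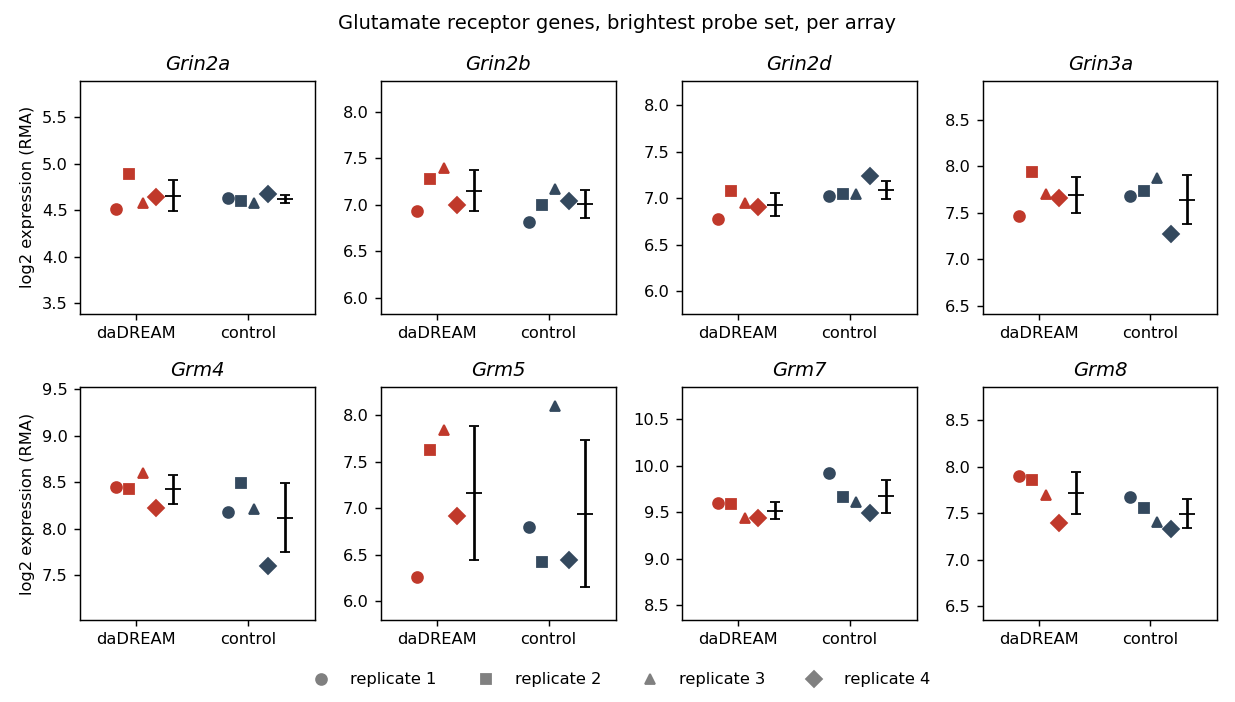
Log2 RMA expression of the 8 measured receptor genes at their brightest probe set, with 1 point per array, the symbol giving the replicate, and bars giving mean ± SD of 4 arrays. Every panel spans 2.5 log2 units, and the groups overlap in all 8 panels, with the widest scatter for Grm5.

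Grin2a encodes GluN2A, the subunit of fast-decaying NMDA receptors of the mature brain. It read 4.51, 4.89, 4.58 and 4.64 on daDREAM arrays, against 4.63, 4.60, 4.58 and 4.67 on control arrays. The control values lay inside the daDREAM range. The difference was 0.04 (SE 0.09, limma adjusted p = 0.862). Its single probe set was brighter than only 8.17% of all probe sets, so a change from this level could be missed.

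Grin2b encodes GluN2B, which decays more slowly and is prominent in development and in pain pathways. Its brightest probe set read 6.93, 7.28, 7.39 and 7.0 on daDREAM arrays, against 6.81, 7.0, 7.17 and 7.04 on control arrays. The groups overlapped, with a difference of 0.15 (95% interval -0.11 to 0.40, limma adjusted p = 0.519). It was 0.22 without daDREAM replicate 1, 0.07 without daDREAM replicate 3, 0.08 without control replicate 1 and 0.29 without the 3 Xist arrays. The 4 Grin2b probe sets did not move together. Probe set 1431700_at read 5.64, 5.74, 6.24 and 5.70 on daDREAM arrays, against 6.05, 6.18, 6.40 and 6.65 on control arrays. There 3 daDREAM arrays lay below all controls and daDREAM replicate 3 lay among them. The difference was -0.49 (0.712-fold, 95% interval 0.566 to 0.896), which did not pass (unadjusted p = 0.00750, limma adjusted p = 0.121 over probe sets). Without daDREAM replicate 3 the difference was -0.63 and passed (adjusted p = 0.0408), and without the 3 Xist arrays it was -0.24 and did not (adjusted p = 0.536). The remaining probe sets differed by 0.04 and -0.12, the last at a mean level under 6.

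Grin2d encodes GluN2D, a subunit of slowly decaying receptors with weak magnesium block. Its brighter probe set read 6.78, 7.08, 6.95 and 6.91 on daDREAM arrays, against 7.03, 7.05, 7.05 and 7.24 on control arrays. All but daDREAM replicate 2 lay below the controls. The difference of -0.16 (SE 0.08, limma adjusted p = 0.328) did not pass. The other probe set averaged 6.25 ± 0.13 on daDREAM arrays and 6.25 ± 0.08 on control arrays (SD, n = 4 each), a difference of 0.01.

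Grin3a encodes GluN3A, the glycine-binding subunit that lowers calcium flow. It read 7.47, 7.94, 7.70 and 7.66 on daDREAM arrays, against 7.68, 7.74, 7.88 and 7.27 on control arrays. The lowest value was that of control replicate 4 and the highest that of daDREAM replicate 2. The difference was 0.05 (SE 0.13, limma adjusted p = 0.873). Its other 2 probe sets differed by -0.06 and 0.06. The 95% intervals of the 3 probe sets together ran from 0.827-fold to 1.27-fold.

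**Figure D2:**
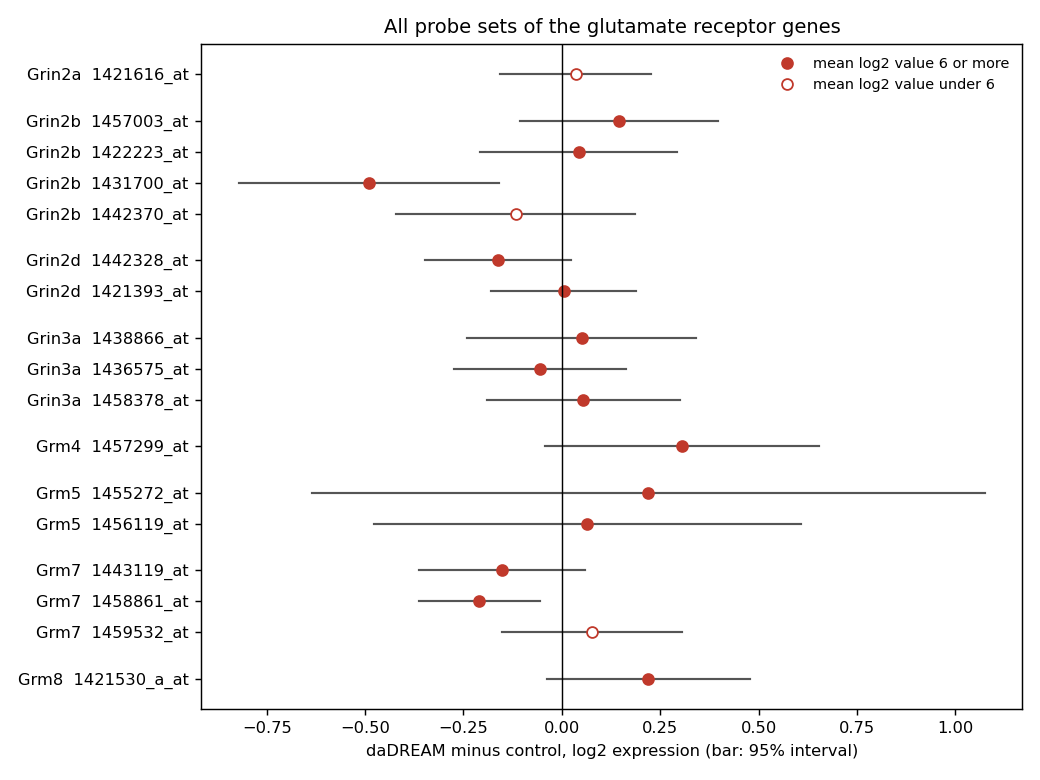
Difference in log2 expression, daDREAM minus control, of all 17 receptor probe sets with limma's 95% interval; open points have a mean log2 value under 6. The intervals of Grin2b 1431700_at and Grm7 1458861_at lie below 0 before adjustment for multiple tests, and the widest intervals are those of Grm5.

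Among the metabotropic receptors, Grm4 had the largest difference of the 8 genes. It encodes mGlu4, which is abundant in cerebellar granule cells. Grm4 read 8.45, 8.43, 8.60 and 8.22 on daDREAM arrays, against 8.18, 8.49, 8.21 and 7.60 on control arrays. Control replicate 4 lay apart below the others. The difference was 0.31 (1.24-fold, 95% interval 0.969 to 1.57, limma adjusted p = 0.337). Without control replicate 4 it was 0.13. Over the 8 arrays, the deviations of Grm4 from its group means had a Pearson correlation of 0.88 with those of Cbln1, a granule cell secreted protein. Cbln1 read 9.97, 9.64, 10.20 and 9.35 on daDREAM arrays, against 9.14, 9.33, 9.37 and 8.52 on control arrays, lowest on the same control replicate 4. The sensory neuron marker Nefh, a heavy neurofilament, had a correlation of 0.88 with Grm4 too. Cbln1 was the highest of 16 central nervous system markers, which started at -0.56 for Barhl1 and had a median of 0.23. The 11 sensory neuron markers ran from -0.43 for P2rx3 to that of Nefh, with a median of 0.60. Without the 2 controls lowest in Gfap (replicates 1 and 4) the Grm4 difference was 0.075. The part of granule cells or of sensory neurons in the Grm4 difference was not tested.

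Grm8 encodes mGlu8, a receptor with high glutamate affinity. It read 7.90, 7.86, 7.70 and 7.40 on daDREAM arrays, against 7.68, 7.56, 7.41 and 7.33 on control arrays. The 3 highest values were daDREAM arrays, above every control, while daDREAM replicate 4 lay near the bottom. The difference was 0.22 (1.16-fold, 95% interval 0.974 to 1.39, limma adjusted p = 0.345).

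Grm7 encodes mGlu7, the low-affinity autoreceptor of glutamate terminals. At its brightest probe set, brighter than 86.2% of all probe sets, it read 9.60, 9.59, 9.44 and 9.44 on daDREAM arrays, against 9.92, 9.66, 9.61 and 9.49 on control arrays. Control replicate 1 was highest, and the groups overlapped. The difference was -0.15 (SE 0.10, limma adjusted p = 0.415), and without control replicate 1 it was -0.07. That array also had the highest mean level of skeletal muscle markers (8.01), while control replicate 3, with a level of 7.52, read 9.61 for Grm7. Correlations of Grm7 with the 11 muscle markers ran from -0.29 for Myh2 to 0.84 for Myh4 and 0.85 for Actn3, with a median of 0.66. Those with the 11 sensory neuron markers ran from 0.15 to 0.83 for Pou4f1 and 0.85 for Trpv1, with a median of 0.41. The part of muscle tissue or of sensory neurons in the Grm7 difference was not tested. Probe set 1458861_at read 6.15, 6.13, 6.24 and 6.28 on daDREAM arrays, against 6.46, 6.35, 6.44 and 6.39 on control arrays. Every daDREAM array lay below every control array. The difference was -0.21 (0.865-fold, 95% interval 0.777 to 0.962) and did not pass (unadjusted p = 0.0117, limma adjusted p = 0.146 over probe sets). The dimmest Grm7 probe set, at means of 4.47 on daDREAM and 4.39 on control arrays, differed by 0.08.

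Grm5, which encodes mGlu5, varied more between arrays than between groups. It read 6.26, 7.63, 7.84 and 6.92 on daDREAM arrays, against 6.80, 6.42, 8.10 and 6.45 on control arrays. The values of both groups spanned a similar range, with daDREAM replicates 2 and 3 and control replicate 3 high and the other 5 arrays low. Its within-group SD of 0.76 was higher than that of 99.9% of all genes. The difference was 0.22 with a 95% interval of -0.64 to 1.08, or 0.640-fold to 2.12-fold (limma adjusted p = 0.801). That interval holds changes of either sign, so these arrays do not settle the direction. It is not the limit of what the test could detect. The second Grm5 probe set read 5.57, 6.23, 6.48 and 6.14 on daDREAM arrays, against 5.61, 5.65, 6.77 and 6.13 on control arrays, and was highest on the same 3 arrays. Its difference was 0.07 (SE 0.25).

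The arrays with high Grm5 were also high in some, but not all, listed genes of central nervous system glia and inhibitory neurons. Among 16081 named genes, the one whose deviations from its group means over the 8 arrays were most like those of Grm5 was Slc1a2, the astrocyte glutamate transporter (r = 0.98). Slc1a2 read 10.75, 11.59, 11.72 and 11.04 on daDREAM arrays, against 11.21, 10.80, 11.89 and 10.71 on control arrays. Slc6a5, the glycine transporter of inhibitory neurons in brainstem and spinal cord, read 7.50, 8.86, 9.04 and 7.81 on daDREAM arrays, against 8.35, 7.84, 8.79 and 7.30 on control arrays, and its correlation with Grm5 was 0.91. The same 3 arrays had the highest values of Grm5, Slc1a2 and Slc6a5. Of the 16 measured central nervous system markers, 6 had a correlation above 0.8 with Grm5, among them the oligodendrocyte genes Olig2 (0.94) and Mobp (0.93). The glial genes Opalin, Aqp4, Mog and Gfap of the list were at 0.77, 0.77, 0.60 and 0.46. Mog was highest on daDREAM replicate 4, at 9.95. Gfap read 10.22 on control replicate 3, below its range of 10.77 to 11.24 on daDREAM arrays. The cerebellar granule cell genes Gabra6, Cbln3 and Cbln1 had lower correlations, at -0.44, -0.35 and 0.36. Zic1, Zic2 and Barhl1 of the same list were at -0.11, -0.02 and -0.10. Of 11 sensory neuron markers 0 had a correlation above 0.8, and their median was -0.36. They ran from -0.84 for both Isl1 and P2rx3 to 0.57 for Nefh. These values describe 8 arrays that share their labelling and normalization. Without the 2 controls lowest in Gfap the Grm5 difference was -0.10. The part of central nervous system tissue in the Grm5 values was not tested.

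**Figure D3:**
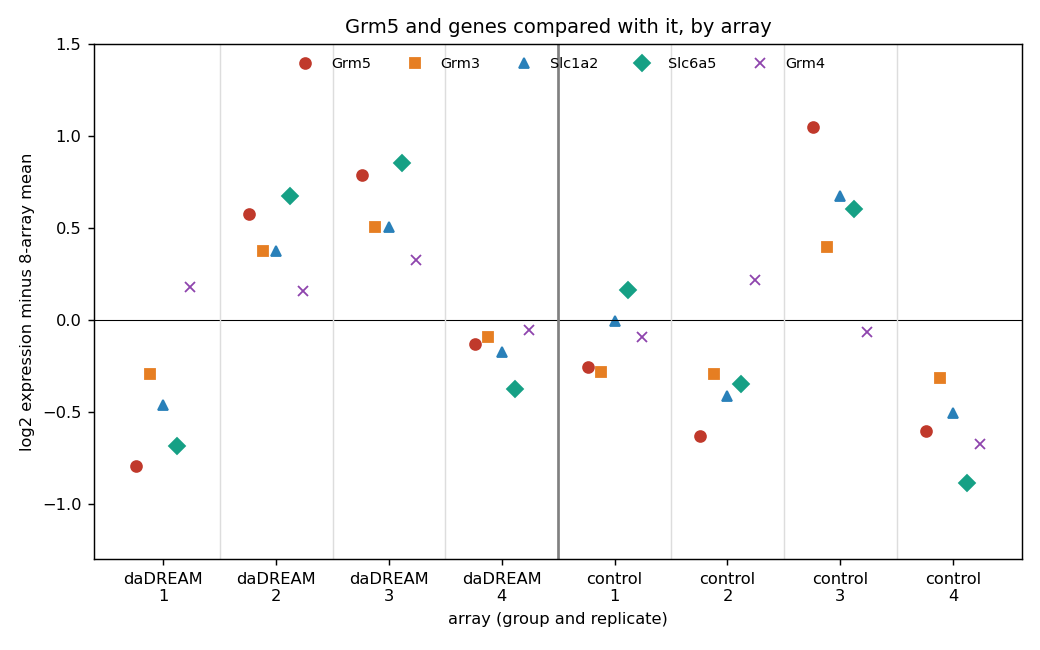
Log2 expression of Grm5, Grm3, Slc1a2, Slc6a5 and Grm4 on each array, each gene minus its own mean over the 8 arrays. Grm5, Grm3, Slc1a2 and Slc6a5 are highest on daDREAM replicates 2 and 3 and on control replicate 3. The highest Grm4 values are on daDREAM replicate 3 and control replicate 2.

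For the other receptors, counts of central nervous system markers with a correlation above 0.8 were 2 for Grin2b, 1 for Grin3a, 1 for Grm4 and 0 for Grin2a, Grin2d, Grm7 and Grm8. Negative correlations are not in these counts, and Grin2d had -0.82 with Zic1, with a median of 0.09 over the 16 markers. Markers of other lists moved with Grin2b (pituitary Ghrhr, -0.83), Grin3a (pituitary Lhb, -0.83, sensory neuron Nefh, 0.82) and Grm4 (muscle Myh2, -0.89). Medians over those lists were -0.23, -0.34, 0.29 and 0.22. Lhb and Myh2 had mean log2 values under 6. Grm7 and Grm8 moved with markers of other lists too. Grm7 had a correlation above 0.8 with 2 skeletal muscle and 2 sensory neuron markers. Grm8 had correlations of -0.93 with the Schwann cell myelin gene Pmp22 and -0.91 with Ncmap, but 0.55 with Fabp7 of the same list. The median over that list of 6 was -0.69. Pituitary markers ran from -0.86 for Cga to -0.13, and sensory neuron markers from 0.11 to 0.81 for Trpv1. The central nervous system marker Mog was at -0.81. Xist had a correlation of -0.93 with Grm8 and the Y-linked Eif2s3y one of 0.91. The part of these cells and of sex in the Grm8 values was not tested, and without the 3 Xist arrays the Grm8 difference was 0.20. The named genes most like the other receptors were Camkv for Grin2b, Adgrf5 for Grin3a, Pip5k1c for Grm4, Col24a1 for Grm7, Klhl29 for Grm8, Ifna11 for Grin2a and Ifnab for Grin2d, with correlations of 0.98 to 0.99. Each is the highest of 16081 correlations over 8 arrays, and Ifna11 and Ifnab lie near the dim end of the arrays, at 3.94 to 4.48 and 4.74 to 5.19 on daDREAM arrays. Control replicate 4 was the lowest control in 4 of the 8 receptor genes, and daDREAM replicate 1 the lowest daDREAM array in 5.

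Receptor genes of the same families outside the set gave no call either. Of Grin2c, Grin3b, Grm2 and Grm3, 0 of 4 passed limma and 1 of 4 had an unadjusted p under 0.05, against 18.2% of all genes. That was Grin2c, the GluN2C subunit, at 7.47, 7.14, 7.41 and 7.01 on daDREAM arrays, against 6.98, 7.06, 7.06 and 6.79 on control arrays (difference 0.29, adjusted p = 0.213). Grm3, the astrocyte and neuronal receptor mGlu3, followed Grm5 across arrays with a correlation of 0.98 and differed by 0.25 (SE 0.20).

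Together with the genes that work with these receptors, 0 of 66 measured genes were past the limma test at each gene's brightest probe set, against 2.00% of all genes. At an unadjusted p under 0.05, 11 were higher and 3 lower of the 66, against 18.2% of all genes in either direction. The median differences were 0.17 for 13 postsynaptic scaffolds, 0.04 for 12 NMDA receptor signalling partners, 0.03 for 19 metabotropic signalling partners, 0.15 for 8 genes of glutamate synthesis, loading and uptake, and 0.12 for 10 genes of glycine and D-serine supply. Nearest to the threshold were the adenylyl cyclase Adcy8 (difference 0.43, adjusted p = 0.0801) and Homer1, the scaffold that ties group I metabotropic receptors to calcium stores (difference 0.29, adjusted p = 0.0809). Homer1 read 9.91, 9.88, 9.82 and 9.79 on daDREAM arrays, against 9.58, 9.60, 9.65 and 9.40 on control arrays, with no overlap. Dao, the oxidase that degrades D-serine, had the smallest p of the co-agonist list (difference 0.48, adjusted p = 0.159). Slc17a6, the vesicular glutamate transporter that loads transmitter in these neurons, averaged 12.18 ± 0.13 on daDREAM arrays and 12.19 ± 0.08 on control arrays (SD, n = 4 each).

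Over all 179 probe sets of these 66 genes, 5 were higher and 1 lower past limma's threshold over probe sets, against 2.74% of all probe sets. Slc1a1, the neuronal glutamate transporter, rose at 2 of its 3 probe sets, by 0.77 and 0.54, and the brightest differed by 0.50 (adjusted p = 0.119 over probe sets). Slc1a1 had a correlation of 0.92 with Grm5 over the arrays, and the part of central nervous system tissue in its difference was not tested. Homer1 rose by 0.66 at 1 of 6 probe sets, a dim one with a mean under 6, where it read 5.92, 5.59, 6.17 and 5.62 on daDREAM arrays, against 5.24, 5.34, 5.10 and 5.0 on control arrays. Nos1, the neuronal nitric oxide synthase that NMDA receptors activate, rose by 0.46 at 1 of 4. The glial glutamate transporter Slc1a3 rose by 0.55 at 1 of 6 probe sets (adjusted p = 0.0497). Camk2a, the calcium/calmodulin kinase bound by GluN2B, fell by 0.78 at 1 of 6 probe sets, where it read 6.21, 6.65, 6.19 and 6.56 on daDREAM arrays, against 7.24, 7.13, 7.15 and 7.20 on control arrays. Its brightest probe set differed by -0.19 without passing.

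**Figure D4:**
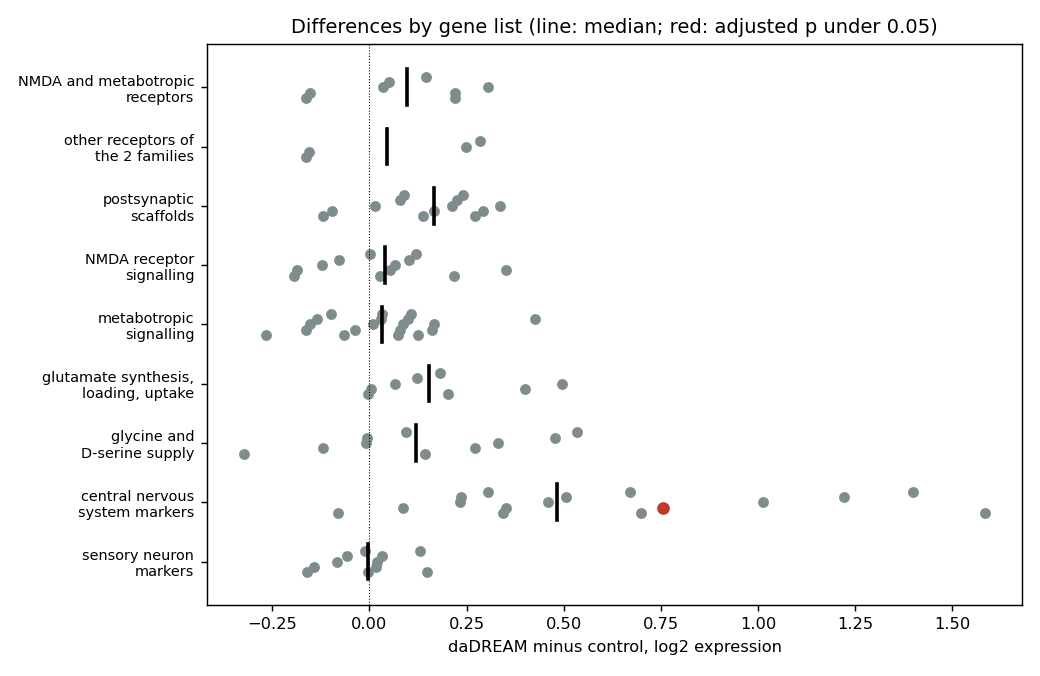
Differences in log2 expression, daDREAM minus control, with 1 point per measured gene at its brightest probe set, by gene list; black lines are medians and red marks an adjusted p under 0.05. The receptor and partner lists scatter around medians of 0.03 to 0.17, while the central nervous system markers have a median of 0.48 and hold the single red point, Aqp4.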

How the data were processed

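RNA of 8 trigeminal ganglion samples, 4 daDREAM and 4 control by title, was measured on Affymetrix arrays. The authors deposited log2 values, 1 per probe set and array, from RMA with affy, per the submitters' processing notes, which name no version. RMA quantile normalization makes differences relative to the other probe sets. Of 45101 probe sets, 64 Affymetrix controls were left out, and the platform annotation gave 34945 a single symbol, 932 several symbols and 9160 no symbol. Each of 18193 genes was read at its brightest single-symbol probe set. Array medians ran from 7.09 to 7.13 and correlations between arrays from 0.983 to 0.996, with no identical pair.

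Group differences came from limma 3.58.1 under R 4.3.3 (lmFit and eBayes, two-sided, group as the only term). P-values were adjusted by Benjamini-Hochberg over all genes or all probe sets, and the code was tested on simulated data. Precision is limited by the number of arrays.

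The receptor genes, gene lists and alternatives were chosen with earlier results of these data known. Named were all receptor genes, in each partner list the genes past the test or the one with the smallest p, markers beside results they move with, and the gene most like each receptor. Camk2a, Slc1a3, Slc17a6, Slc6a9, Slc7a10 and Grm3 were added after their values were seen.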

Additional observations from a re-analysis of the deposited data

Results flagged for a closer look

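In 3 of 34 groups of 4 arrays (17 receptor probe sets in 2 groups), 1 array stood apart from the other 3 by Dixon's 95% criterion, where chance gives about 1 in 20. For Grin2b probe set 1431700_at, daDREAM replicate 3 read 6.24 and the other daDREAM arrays 5.64 to 5.74. For Grin2b probe set 1442370_at, control replicate 3 read 5.42 and the other controls 4.97 to 5.01, at a level under 6. For the brighter Grin2d probe set 1442328_at, control replicate 4 read 7.24 and the other controls 7.03 to 7.05.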

How the results depend on the processing

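In all 20 alternatives 0 of the 8 receptor genes passed limma, while the count over all genes ran from 80 (without the 3 arrays highest in Slc6a5, chosen after seeing the data) to 697 (most variable probe set of each gene), against 364. It was 98 without the 3 arrays highest in Gh, 213 without the Xist arrays, 227 without the 2 controls lowest in Gfap, and 229 and 236 without daDREAM replicates 2 and 3. Grm4, Grm8 and Grin2d kept their direction in 20 of 20 alternatives. Same-numbered arrays had correlations of 0.209, 0.00628, 0.331 and 0.360 in their deviations from group means, so the numbers were not taken to pair them; daDREAM replicates 1 and 2 correlated best with control replicates 2 and 1. With replicate number as a block, 672 of all genes, 0 receptor genes, 1 receptor probe set (Grin2b 1431700_at, adjusted p = 0.0456) and 4 partner genes (Nos1, Slc1a1, Adcy8 and Dao) passed.

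Leaving out 1 array in turn gave 0 to 1 receptor probe sets, the 1 being Grin2b 1431700_at without daDREAM replicate 3, and 0 to 1 partner genes, the 1 being Dao without daDREAM replicate 4. Partner genes past the test numbered 1 without the controls lowest in Gfap (Gnai2, -0.37), 2 with the mean of probe sets (Nos1 and Slc1a1) and 4 with the most variable probe set (Slc1a1, Camk2a, Homer1 and Nos1).

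Several small differences changed sign, and the cause was not tested. Leaving out 1 array in turn gave ranges of -0.0433 to 0.0833 for Grin2a, -0.0325 to 0.1275 for Grin2b 1422223_at, -0.0383 to 0.065 for Grin2d 1421393_at, -0.0742 to 0.1292 for Grin3a, -0.1275 to 0.0192 for Grin3a 1436575_at, -0.0183 to 0.1333 for Grin3a 1458378_at, -0.0058 to 0.6058 for Grm5 and -0.0783 to 0.3083 for Grm5 1456119_at. Without the controls lowest in Gfap, the differences were -0.02 for Grin2d 1421393_at, -0.1175 for Grin3a, -0.06 for Grin3a 1458378_at, -0.0975 for Grm5 and -0.105 for Grm5 1456119_at. Without the arrays highest in Slc6a5, they were -0.0583 for Grin2a and -0.11 for Grin2b 1422223_at. Without the arrays highest in Gh, they were -0.075 for Grin2b 1422223_at and 0.0183 for Grin2b 1442370_at. Without the Xist arrays, they were 0.1 for Grin2b 1442370_at and -0.0067 for Grin3a. Array weights gave -0.0125 for Grin2d 1421393_at and -0.0099 for Grin3a. Averaged over its probe sets Grin2b was -0.105. At their most variable probe sets Grin2b was -0.49 and Grm7 0.0775. Grin2a and 2 other dim probe sets had no value under the filter on dim probe sets.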

Other observations

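Of 10 measured genes that supply the co-agonists of NMDA receptors, 2 had a correlation above 0.8 with Grm5, and the others ran from -0.69 for Psph to 0.78 for Psat1. Slc6a9, a glycine transporter of glia, and Slc7a10, a transporter of D-serine and small neutral amino acids, had correlations of 0.95 and 0.91 with Grm5 over the 8 arrays. Slc7a10 read 7.83, 8.49, 8.82 and 8.04 on daDREAM arrays, against 7.81, 7.71, 8.38 and 7.14 on control arrays, and differed by 0.54 without passing (limma adjusted p = 0.292). Kcnj10, the inward rectifier of astrocytes and satellite glia, had a correlation of 0.92. The source of this array order was not tested.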
